A study of Mus musculus with 40 samples.

Results

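The 10 genes described here encode chaperones, co-chaperones, degradation factors and transcription factors of the unfolded protein response of the endoplasmic reticulum (ER). They are Hspa5, Hsp90b1, Dnajb9, Dnajc3, Pdia4, Sdf2l1, Herpud1, Edem1, Xbp1 and Atf6. They were taken by gene symbol, and the rule that lists them uses no measured value. They make up 10 of the 43430 genes counted, and all 10 had enough reads to be among the 11853 genes tested. RNA was sequenced from macrophages grown from bone marrow with M-CSF (BMDMs) of 5 WT and 5 NDI1 mice of the C57/Bl6 strain. The labels call these genotypes VAV-Cre WT and VAV-Cre NDI1, and by the study's methods the NDI1 line was bred from mice of mixed J and N substrains. NDI1 mice carried a Rosa26 allele of the yeast NADH dehydrogenase NDI1 behind a stop cassette that a Vav-driven Cre removes in hematopoietic cells, so the enzyme was not limited to macrophages, and littermates of both sexes were used. BMDMs of each mouse were put through 4 treatments. They were left untreated, given LPS (100 ng per ml, 4 h), given piericidin A (500 nM), or given both agents, with piericidin A added 30 min before LPS. The total exposure of the cells given piericidin A alone is not given in the sources used here. Each of the 8 groups had 5 libraries, 1 from each mouse, which makes 40 in all.

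LPS is a bacterial surface component that activates macrophages through TLR4, piericidin A inhibits mitochondrial complex I, and NDI1 oxidizes NADH in mitochondria without being inhibited by piericidin A. The unfolded protein response is set off when unfolded proteins gather in the ER. Its sensors IRE1 (gene Ern1), PERK (gene Eif2ak3) and ATF6 span the ER membrane. IRE1 splices the Xbp1 mRNA so that it encodes an active factor, ATF6 is cut to release a factor, and PERK phosphorylates eIF2α, which lowers translation and raises ATF4. XBP1 and ATF6 bind ER stress elements in promoters of chaperone and degradation genes. Counts per gene show neither the splicing of Xbp1 nor the cutting of ATF6. The comparisons asked which of these genes moved with LPS, which moved with complex I inhibition, and whether NDI1 altered either.

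The elements that define this response were looked for in the RefSeq promoter windows of the build GRCm38.p6, which run from 250 bases before to 50 bases after a transcript start. The ER stress element (ERSE) was searched as CCAAT, 9 bases of any kind and CCACG, ERSE-II as ATTGG, 1 base and CCACG, and the C/EBP-ATF element bound by ATF4 and its partners as TGATG, 1 base and AA, each on both strands. Of 32851 promoters in the table, 0.119% held an ERSE, 0.0365% an ERSE-II and 3.97% a C/EBP-ATF element. Of the members, 9 had an entry in the table, and Atf6 had none. The sites found in members follow with the flanking bases, in lower case with the letters searched in capitals. They are shown because Hspa5, Hsp90b1 and Dnajc3 share the element while their levels moved differently, and because Herpud1 held both of the other elements.
Hspa5 ERSE: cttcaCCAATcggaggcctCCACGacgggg
Hsp90b1 upstream ERSE: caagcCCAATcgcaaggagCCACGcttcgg
Hsp90b1 downstream ERSE: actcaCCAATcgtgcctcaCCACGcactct
Dnajc3 ERSE: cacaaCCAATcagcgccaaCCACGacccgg
Herpud1 ERSE-II: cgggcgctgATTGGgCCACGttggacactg
Herpud1 C/EBP-ATF element: ggggtgcgggcTGATGcAAcccgccgtggt
The Hspa5 window is chr2:34772020-34772049 on the plus strand, and its element begins at position -65 from the RefSeq start, inside an exon of Hspa5 in the GENCODE M21 annotation. The Hsp90b1 windows are chr10:86705632-86705661, read on the minus strand that carries the gene, and chr10:86705528-86705557, read on the opposite strand. Their elements begin at positions -212 and -107, and no GENCODE M21 transcript covers either. The Dnajc3 window is chr14:118937822-118937851 on the plus strand, with its element at position -105 and no transcript over it. The Herpud1 windows are chr8:94386368-94386397 on the plus strand and chr8:94386306-94386335 on the minus strand. Their elements begin at positions -52 and -112 of the gene's strand, both in an intron of the neighbouring gene Gm15890. Every ERSE and ERSE-II also contains the shorter CCACG box, which alone occurred in 32.8% of all promoters. Dnajb9, Pdia4, Sdf2l1 and Edem1 held this box and none of the longer elements, and Xbp1 held none of the motifs. A match describes letters in a window and not binding.

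Total counts per library ranged from 6950748 to 13552070. The 8 macrophage markers were counted in all 40 libraries, with summed levels of 18586 to 45256 counts per library scaled to a common total (CPM). In WT mouse 496 and NDI1 mouse 503, all 4 libraries stood apart on the second principal component, which held 7.32% of the variance. They scored between -72.8 and -28.1, and the libraries of the other 8 mice scored between -13.6 and 26.3. The summed level of 4 neutrophil and precursor markers was 122 to 369 CPM in mouse 496, 121 to 162 CPM in mouse 503 and 4.66 to 46.1 CPM in the other mice. These sums rest mainly on S100a8, which reached 344 CPM in a library, against at most 24.6 CPM for Mpo, 8.59 CPM for Elane and 1.54 CPM for Ly6g. The 5 B and plasma cell markers summed to 1.49 to 9.74 CPM, 5.53 to 9 CPM and 0 to 1.63 CPM in the same order, and the 4 stromal markers to 39.7 to 82.5 CPM, 8.56 to 14.1 CPM and 0.53 to 21.8 CPM. The 4 T cell markers overlapped between mice, with 5.69 to 11.8 CPM, 8.13 to 14.5 CPM and 1.58 to 17.6 CPM. In WT the 3 dendritic cell markers summed to 0.893 to 3.37 CPM untreated and 5.12 to 6.98 CPM with LPS, without overlap, and reached 10.4 CPM with piericidin A and 12.9 CPM with both, and their part in the results was not tested. Counts that lead a comparison are therefore also given without both mice.

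Gene levels below are CPM on library sizes scaled by TMM, while sums of markers are CPM of library totals without TMM factors, and effects are log2 fold changes with their standard errors (SE) from edgeR's quasi-likelihood test, with adjusted p-values (Benjamini-Hochberg, 11853 genes) and a threshold of 0.05. The LPS and piericidin A comparisons of a genotype share their untreated libraries. TMM factors lay between 1.13 and 1.37 in the 20 libraries without LPS and between 0.696 and 0.899 in the 20 with LPS. With library totals and no factors, the median gene fell by 0.78 on the log2 scale with LPS in WT, against -0.01 with TMM, so all LPS effects are changes relative to the other genes.

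In untreated WT BMDMs the levels per kilobase of exon ordered the genes as follows. Hspa5, the ER Hsp70 chaperone BiP, led with 167 ± 33.8 CPM per kb (SD, n = 5), and Hsp90b1, the ER Hsp90 chaperone GRP94, came next with 89.6 ± 19.8. Edem1 had 36.3 ± 3.64, Xbp1 33 ± 3.66, Pdia4 31.4 ± 7.3 and Sdf2l1 25.5 ± 10.4 CPM per kb. Dnajc3 had 19.8 ± 2.91, Dnajb9 14.3 ± 1.17, Atf6 12.4 ± 1.4 and Herpud1 12.2 ± 3.62 CPM per kb. The SD intervals of Hspa5 and Hsp90b1 overlapped with no other gene's, and those of Dnajc3 and Dnajb9 did not overlap with each other. The neighbours from Edem1 to Dnajc3, and those from Dnajb9 to Herpud1, overlapped within 1 SD. With LPS in WT, Hspa5 reached 495 ± 68.5 CPM per kb and Xbp1 58.6 ± 13.1, while Dnajb9 stood at 8.48 ± 1.59. The plot of CPM by library shows all 10 genes in the 8 groups.

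**Figure D1:**
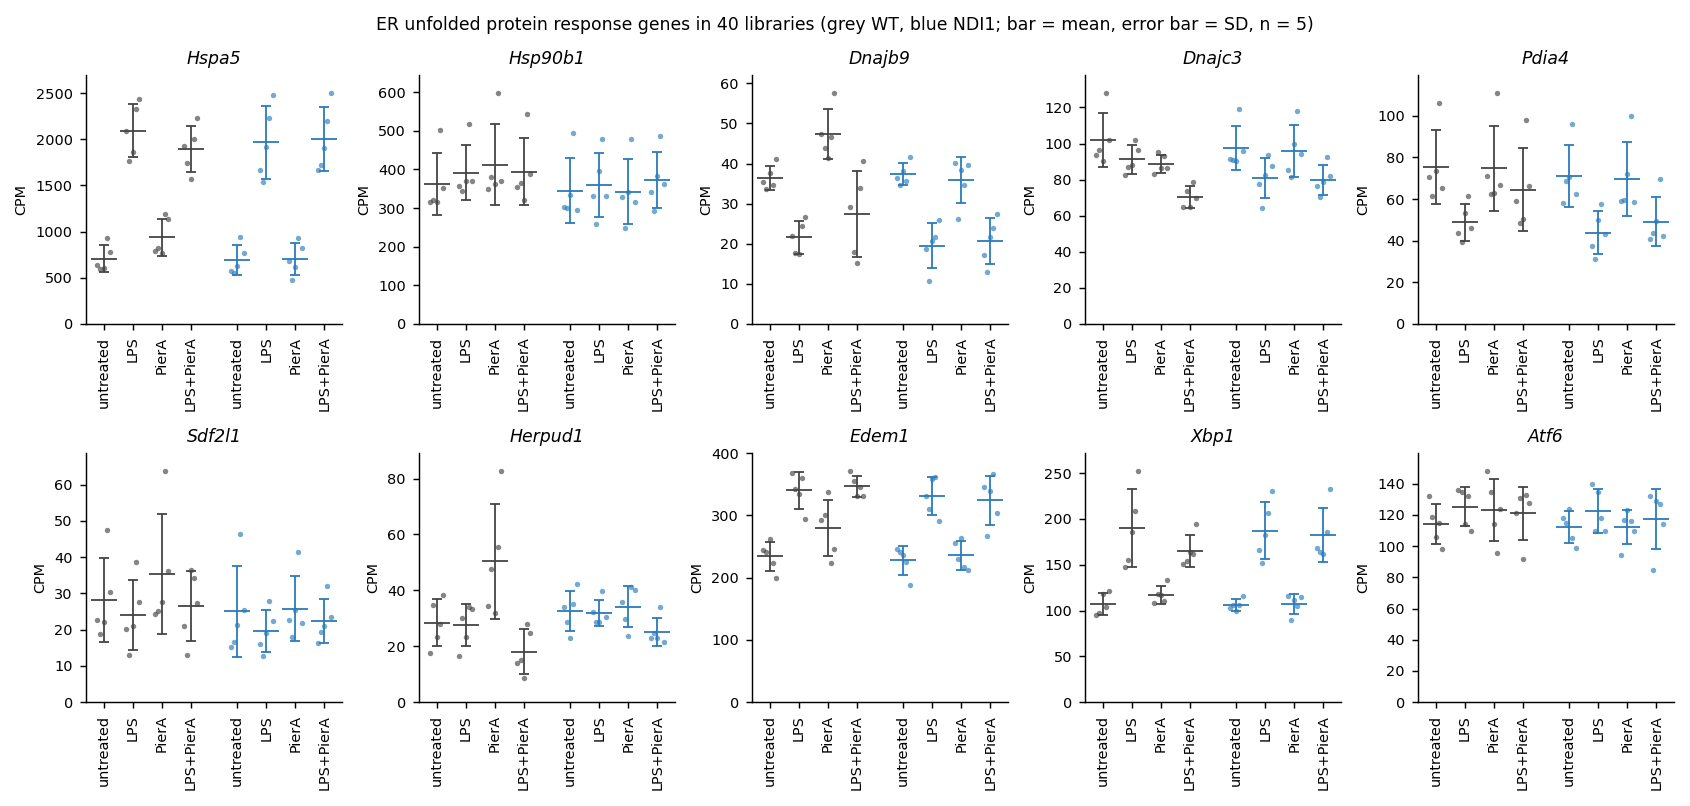
CPM of the 10 genes in each of 40 libraries (points), with the mean and SD of 5 mice per group (bars), WT in grey and NDI1 in blue, on axes that start at 0. With TMM factors Hspa5, Edem1 and Xbp1 were higher and Dnajb9 and Pdia4 lower in the LPS groups of both genotypes, while by library totals Edem1 turned lower and Xbp1 did not pass, and Herpud1 had its highest group mean, 50.4 CPM, in WT with piericidin A.

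With LPS, 5 of the 10 genes changed in WT and 6 in NDI1, some up and some down. Relative to the median gene, Hspa5, Xbp1 and Edem1 rose, and Dnajb9 and Pdia4 fell, in both genotypes, while Dnajc3 fell in NDI1. By library totals without factors the split was 1 higher and 8 lower in each genotype, with Edem1 turned lower, against 81% of all genes called in WT (14.6% higher, 66.3% lower) and 80.8% in NDI1 (14.6% higher, 66.1% lower). Across all genes tested 62.5% were called in WT and 62.7% in NDI1 in either direction, so the share of members called was near the background. The members that rose were 3 of 10 in each genotype, against 31.5% of all genes in WT and 31.5% in NDI1, and those that fell were 2 and 3, against 31% and 31.2%. The median log2 fold change of the 10 genes was 0.03 in WT and 0.02 in NDI1, against -0.01 for all genes in each. Without both mice that stood apart, 5 and 6 members were called again, against 60.4% and 60.7% of genes. With the mouse as a block, which compares libraries within a mouse, 6 members were called in WT, where Dnajc3 joined the falls (adjusted p = 0.0304, edgeR), against 72% of genes. Bulk RNA cannot tell fewer cells of a type apart from less RNA per cell.

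Among the chaperones, Hspa5 rose with LPS from 633, 590, 607, 926 and 775 CPM in the 5 untreated WT mice to 2093, 1759, 1856, 2323 and 2432 CPM in the same order of mice. Every LPS library lay above every untreated library, and the log2 fold change was 1.57 ± 0.18 (SE, n = 5 mice, edgeR adjusted p = 1.81e-09). In NDI1 the rise was 1.51 ± 0.18 (adjusted p = 4.29e-09, edgeR), and without the TMM factors it was still 0.79 in WT and 0.73 in NDI1. Hsp90b1, whose promoter window holds the same element in 2 places, had group means of 361 ± 79.7 CPM untreated and 392 ± 70.5 CPM with LPS in WT, with overlapping groups. Its log2 fold change of 0.12 ± 0.19 did not pass the test (adjusted p = 0.61, edgeR), although the LPS library was the higher in 5 of 5 WT mice, and by library totals the direction turned to -0.66 (adjusted p = 0.000328). In NDI1 the value was 0.06 ± 0.19, higher in 3 of 5 mice, and -0.72 by library totals (adjusted p = 0.000123, edgeR).

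The J-domain co-chaperones pass substrates to BiP and drive its ATPase. Dnajb9 fell with LPS in both genotypes and Dnajc3 passed the test in NDI1. Dnajb9, or ERdj4, which also holds IRE1 in its inactive state, had 35.3, 33.7, 37.7, 34.6 and 41.1 CPM in untreated WT mice and 21.9, 17.7, 17.4, 24.4 and 26.6 CPM with LPS. The groups did not overlap, and the gene fell by 0.76 ± 0.205 on the log2 scale in WT (adjusted p = 0.00156, edgeR) and by 0.93 ± 0.205 in NDI1 (adjusted p = 0.000163, edgeR). Dnajc3, or P58IPK, which also inhibits PERK, had 102 ± 15 CPM untreated and 91.2 ± 7.87 CPM with LPS in WT. Its log2 fold change was -0.16 ± 0.11 in WT (adjusted p = 0.199, edgeR), lower in 5 of 5 mice, and it fell by 0.27 ± 0.11 in NDI1 (adjusted p = 0.031, edgeR). The NDI1 call was lost without mouse 447 (adjusted p = 0.0591) and without mouse 460 (adjusted p = 0.0909, edgeR), and the difference of the LPS effect between genotypes passed for none of the 10 genes.

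Pdia4, a protein disulfide isomerase of the ER, fell with LPS by 0.63 ± 0.20 on the log2 scale in WT (adjusted p = 0.0077, edgeR) and by 0.70 ± 0.20 in NDI1 (adjusted p = 0.00331, edgeR). Its WT libraries held 70.8, 61.6, 73.6, 106 and 65.4 CPM untreated and 43.8, 39.2, 53.4, 61.6 and 46.2 CPM with LPS, and the groups met at 61.6 CPM. Sdf2l1, a partner of the ER J-domain proteins, ranged from 18.7 to 47.5 CPM untreated and from 13 to 38.8 CPM with LPS in WT, and its log2 fold change of -0.23 ± 0.32 did not pass (adjusted p = 0.549, edgeR).

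Of the degradation factors, Edem1, a lectin-like protein that draws misfolded glycoproteins out of the folding cycle, rose with LPS from 245, 242, 262, 223 and 200 CPM to 369, 343, 335, 361 and 294 CPM in WT. All LPS libraries lay above all untreated ones, and the log2 fold change was 0.54 ± 0.105 in both genotypes (adjusted p = 2.94e-05 in WT and 2.93e-05 in NDI1, edgeR). With library totals and no factors this direction turned, to -0.24 in WT (adjusted p = 0.0341, edgeR). Herpud1, a membrane protein that assembles the degradation complex of the ER, did not pass with LPS alone, with 28.4 ± 8.44 CPM untreated and 27.5 ± 7.52 CPM with LPS in WT (log2 fold change -0.05 ± 0.25, adjusted p = 0.88, edgeR). By library totals Herpud1 was at -0.83 (adjusted p = 0.00203), Sdf2l1 at -1.01 (adjusted p = 0.00306) and Dnajc3 at -0.94 (adjusted p = 8.44e-11, edgeR) in WT.

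The transcription factors differed from each other. Xbp1 had 95.2, 97.5, 118, 104 and 121 CPM in untreated WT mice and 148, 155, 186, 209 and 252 CPM with LPS, with no overlap. It rose by a log2 fold change of 0.83 ± 0.125 in WT (adjusted p = 4.7e-07, edgeR) and 0.82 ± 0.125 in NDI1 (adjusted p = 5.85e-07, edgeR), while without the TMM factors the value was 0.05 in WT and 0.04 in NDI1. Atf6 had WT group means between 114 and 126 CPM over the 4 treatments and NDI1 means between 112 and 123 CPM. Its log2 fold change with LPS was 0.14 ± 0.12 in WT (adjusted p = 0.329, edgeR), and with TMM factors no comparison called it, while by library totals it turned to -0.65 in both genotypes (adjusted p = 8.85e-06 in WT and 9.6e-06 in NDI1, edgeR). The plot of treatment effects sets the LPS changes beside those of piericidin A.

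**Figure D2:**
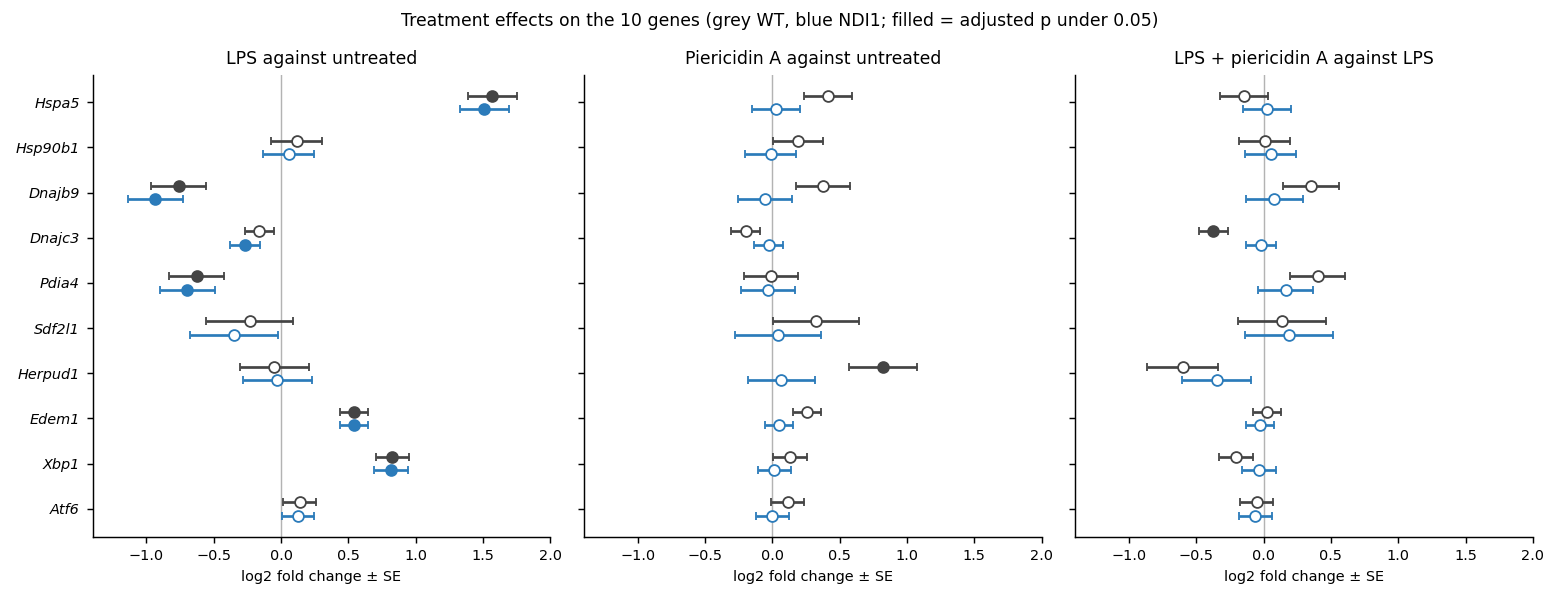
Log2 fold changes with SE of the 10 genes for LPS against untreated, piericidin A against untreated, and LPS with piericidin A against LPS, in WT (grey) and NDI1 (blue), with filled points where the adjusted p was under 0.05. LPS effects of both genotypes lie side by side for every gene, and with piericidin A only Herpud1 without LPS (0.82) and Dnajc3 with LPS (-0.37) are filled, both in WT.

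The other ER genes were a list of 92 sensors, chaperones, degradation factors and genes of translocation, processing and export, of which 87 were tested. With LPS in WT, 25 of them rose and 12 fell (28.7% and 13.8%, against 31.5% and 31% of all genes), with a median log2 fold change of 0.13. By library totals without factors the split was 4 higher and 74 lower, against 14.6% and 66.3% of all genes. Without mouse 496 and mouse 503 it was 29 and 10, where 60.4% of all genes were called. Of 22 degradation genes, 10 rose and 3 fell. Rnf139, a ubiquitin ligase of the ER membrane, had the largest rise at 2.22 ± 0.12 (adjusted p = 1.96e-18, edgeR). Among 8 sensors and ER-bound factors, 2 rose and 4 fell. Eif2ak3, the gene of PERK, fell by 2.92 ± 0.19 on the log2 scale (adjusted p = 1.26e-15, edgeR), from 30.7 ± 3.01 to 4.01 ± 1.11 CPM, and Ern1, the gene of IRE1, fell by 1.20 ± 0.16 (adjusted p = 2.96e-08, edgeR), from 84.9 ± 5.28 to 36.8 ± 4.62 CPM. Creb3l2, an ER-bound factor of the ATF6 kind, fell by 1.44 ± 0.175 (adjusted p = 5.26e-09, edgeR), and its relative Creb3l1 rose by a log2 fold change of 1.64 ± 0.31 (adjusted p = 2.29e-05, edgeR). Ssr3, a subunit of the translocon-associated complex, rose by 1.41 ± 0.15 (adjusted p = 2.48e-10, edgeR). Of 26 chaperones and foldases, 5 rose and 2 fell.

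The arm of the response that runs from PERK to ATF4 was covered by 13 genes, all tested. Whether PERK moved these genes was not tested. With LPS in WT, 4 rose and 4 fell, or 30.8% in each direction, against 31.5% and 31% of all genes. By library totals the split was 3 higher and 7 lower, against 14.6% and 66.3% of all genes. Without mouse 496 and mouse 503 it was 4 and 4. Nupr1 had the largest rise, 3.39 ± 0.35 (adjusted p = 9.59e-11, edgeR), followed by the transcription factor genes Cebpb with 2.05 ± 0.22 (adjusted p = 2.34e-10, edgeR) and Atf3 with 1.62 ± 0.27 (adjusted p = 2.65e-06, edgeR). Sesn2 fell by 2.45 ± 0.21 on the log2 scale (adjusted p = 8.25e-13, edgeR), Trib3 by 1.66 ± 0.46 (adjusted p = 0.00198, edgeR) and Ddit3, the gene of CHOP, by 1.00 ± 0.295 (adjusted p = 0.00354, edgeR).

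With piericidin A alone, Herpud1 was the member that passed the test in WT. It rose from 17.5, 34.7, 23.5, 27.8 and 38.5 CPM to 34.3, 47.5, 31.8, 55.6 and 82.6 CPM in the same order of mice. The groups overlapped because the mice began at different levels, and the level was higher with piericidin A in 5 of 5 mice, by 0.43 to 1.1 on the log2 scale. The log2 fold change was 0.82 ± 0.25 (adjusted p = 0.0233, edgeR). That is 1 of 10 members, against 14.8% of all genes called in either direction, 7.79% higher and 7.05% lower. The call was lost without mouse 496 (0.78, adjusted p = 0.0864, edgeR) and without mouse 520 (0.705, adjusted p = 0.0856). A fit on only the compared libraries lost it too (adjusted p = 0.0618) and called Dnajb9 instead (adjusted p = 0.0341, edgeR). By library totals Herpud1 (0.68, adjusted p = 0.0369) and Dnajc3 (-0.32, adjusted p = 0.0161, edgeR) were called, against 18.7% of all genes. Without mouse 496 and mouse 503 no member was called, against 7.72% of genes, and 3 members had an unadjusted p under 0.05 (edgeR). In mouse 496 the markers of other cells were higher with piericidin A than untreated, with neutrophil sums of 369 and 122 CPM, B and plasma cell sums of 8.89 and 1.49 CPM and stromal sums of 70 and 39.7 CPM, and under LPS neutrophil sums were 360 CPM with and 142 CPM without it.

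The fit with the mouse as a block called 6 members for piericidin A in WT, 5 higher and 1 lower, against 34.2% of all genes. Hspa5 was higher in 5 of 5 mice, going from 633, 590, 607, 926 and 775 CPM to 791, 817, 771, 1185 and 1132 CPM. Its log2 fold change of 0.41 ± 0.18 had an adjusted p of 0.116 without the block and 0.000309 with it (edgeR). For Herpud1 the blocked adjusted p was 3.79e-05. Dnajb9, at 0.38 ± 0.20 and higher in 5 of 5 mice, had adjusted p-values of 0.208 without and 0.026 with the block, and its WT groups, 33.7 to 41.1 CPM untreated and 41.5 to 57.6 CPM with piericidin A, did not overlap. Edem1, at 0.26 ± 0.10, had 0.0909 and 0.0138, and Hsp90b1, at 0.19 ± 0.19, had 0.54 and 0.0247 (edgeR). Dnajc3 was the one with a lower level, at -0.20 ± 0.11, with adjusted p-values of 0.224 and 0.0205 (edgeR). Pdia4, Sdf2l1, Xbp1 and Atf6 passed in neither fit, with log2 fold changes of -0.01, 0.32, 0.13 and 0.11.

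In NDI1 BMDMs piericidin A alone called no member, against 0% of all genes, and DESeq2 called none. No member had an unadjusted p under 0.05 (edgeR), against 58 of 11853 genes. With so few genes below 0.05, none among 10 says little about the members. The log2 fold changes of the 10 genes lay between -0.06 for Dnajb9 and 0.07 for Herpud1. Herpud1 had 34.2, 28.6, 23, 35.1 and 42.2 CPM untreated and 35.9, 29.8, 23.8, 41.2 and 40.3 CPM with piericidin A. Hspa5 had 573, 546, 622, 942 and 771 CPM untreated and 682, 472, 617, 925 and 823 CPM with piericidin A, higher in 2 of 5 mice.

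**Figure D3:**
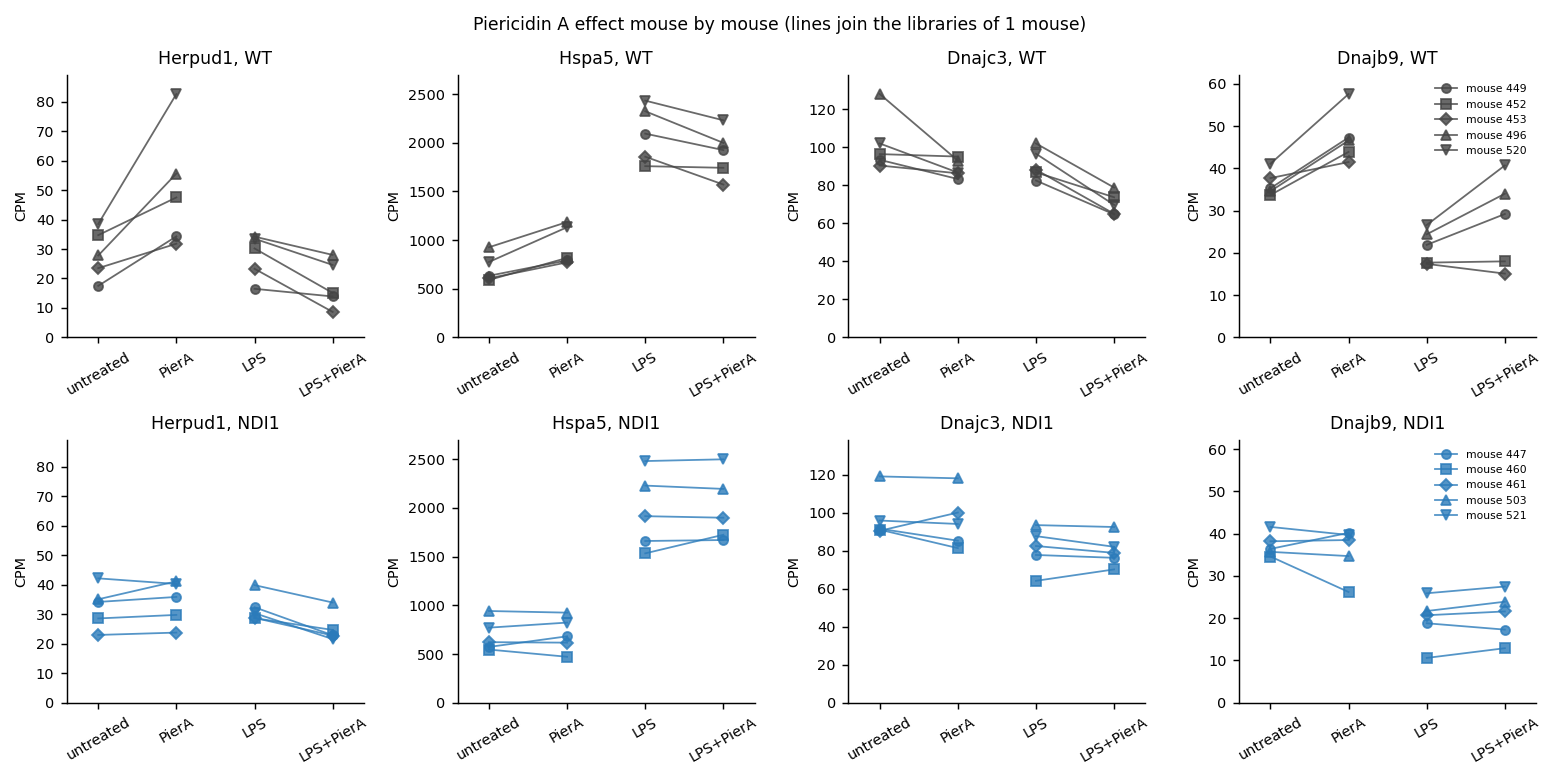
CPM of Herpud1, Hspa5, Dnajc3 and Dnajb9 with and without piericidin A, first without LPS and then with LPS, with a line for each mouse in each LPS setting (top row WT, bottom row NDI1). In WT the Herpud1 lines climb in all 5 mice without LPS and drop in all 5 with LPS, the Dnajc3 lines drop in both settings, and in NDI1 without LPS the lines climb in 4 of 5 mice for Herpud1, 2 of 5 for Hspa5, 1 of 5 for Dnajc3 and 2 of 5 for Dnajb9.

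Under LPS the picture in WT was another. Dnajc3 was the member called for piericidin A added to LPS, going from 82.5, 86.8, 88.2, 102 and 96.6 CPM to 64.7, 73.7, 65, 78.8 and 69.7 CPM. No library with both agents reached the lowest LPS library, and the gene fell by 0.37 ± 0.11 on the log2 scale (adjusted p = 0.0161, edgeR). That is 1 of 10 members, against 16.7% of all genes called, 7.81% higher and 8.92% lower. The call was lost without mouse 453 (adjusted p = 0.0508), without mouse 520 (adjusted p = 0.0954) and in a fit on only the compared libraries (adjusted p = 0.0774, edgeR), with log2 fold changes of -0.41 to -0.35 over the mice left out, and it was kept without mouse 496 and mouse 503 (-0.37, adjusted p = 0.0149, edgeR), where 8.12% of genes were called. Herpud1, which had risen with piericidin A alone, had 16.5, 30.2, 23.3, 34.2 and 33.5 CPM with LPS and 13.9, 15.1, 8.65, 28 and 24.6 CPM with both agents. It was lower in 5 of 5 mice, by 0.24 to 1.41, and its log2 fold change of -0.60 ± 0.26 had an adjusted p of 0.11 (edgeR). With the mouse as a block 3 members were called, against 34.5% of all genes, with Herpud1 lower (adjusted p = 0.0016), Dnajc3 lower (adjusted p = 5.42e-05) and Pdia4 higher (0.40 ± 0.205, adjusted p = 0.00125 with the block and 0.176 without it, edgeR). Hspa5 stayed at high level, 2093 ± 290 CPM with LPS and 1893 ± 251 CPM with both, with a log2 fold change of -0.145 ± 0.18 (adjusted p = 0.614, edgeR).

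In NDI1 BMDMs piericidin A under LPS called no member, against 0% of all genes, and none had an unadjusted p under 0.05 (edgeR), against 127 of 11853 genes. Dnajc3 had 77.7, 64.1, 82.4, 93.4 and 87.6 CPM with LPS and 76.2, 70.1, 78.8, 92.4 and 82 CPM with both agents. Herpud1 had 32.4, 28.7, 28.8, 39.9 and 30.4 CPM with LPS and 22.9, 24.7, 22.8, 34 and 21.6 CPM with both, lower in 5 of 5 mice, with a log2 fold change of -0.35 ± 0.26 (adjusted p = 1, edgeR).

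Whether LPS acted differently with piericidin A present was tested as a difference of 2 LPS effects that share no library. In WT the difference for Herpud1 was -1.42 ± 0.36 on the log2 scale (adjusted p = 0.0162, edgeR), between -1.85 and -1.2 in the 5 mice. This was 1 of 10 members, against 4.75% of all genes. The call was lost without mouse 496 (adjusted p = 0.0513, edgeR), without mouse 520 (adjusted p = 0.0512) and on only the compared libraries (adjusted p = 0.0731), and without mouse 496 and mouse 503 no member was called, against 1.59% of genes, 2 members had an unadjusted p under 0.05, and the value was -1.50 (adjusted p = 0.055, edgeR). With the block 4 members were called, against 17.4% of genes. They were Herpud1 (adjusted p = 8.69e-06), Hspa5 at -0.56 ± 0.25 (0.219 without the block, 0.00139 with it), Xbp1 at -0.34 ± 0.18 (0.308 and 0.0457) and Pdia4 at 0.41 ± 0.29 (0.472 and 0.0208, edgeR). The Hspa5 level was higher with piericidin A in 5 of 5 WT mice without LPS and lower in 5 of 5 with LPS. In NDI1 the difference for Herpud1 was -0.415 ± 0.36 (adjusted p = 1, edgeR), below 0 in 5 of 5 mice, and no member was called, against 0% of genes.

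NDI1 and WT were then compared directly. Untreated and with LPS no member was called, against 0% and 0% of all genes, and none had an unadjusted p under 0.05 (edgeR). Of all 11853 genes, 39 untreated and 141 with LPS had one, so few that this says little about the members. The log2 differences of NDI1 minus WT lay between -0.18 for Sdf2l1 and 0.20 for Herpud1 untreated, and between -0.29 for Sdf2l1 and 0.22 for Herpud1 with LPS. With piericidin A no member was called by edgeR or DESeq2, against 7.8% of genes. An unadjusted p under 0.05 (edgeR) was found for 2620 of 11853 genes and for 3 members. These were Herpud1 at -0.56 ± 0.25 (34.2 ± 7.37 CPM in NDI1, 50.4 ± 20.5 CPM in WT, adjusted p = 0.174), Hspa5 at -0.42 ± 0.18 (704 ± 177 and 939 ± 202 CPM, adjusted p = 0.151) and Edem1 at -0.25 ± 0.10 (236 ± 22.8 and 280 ± 45.2 CPM, adjusted p = 0.142, edgeR). With LPS and piericidin A no member was called, against 12% of genes, and none had an unadjusted p under 0.05 (edgeR), against 3217 of 11853 genes. Dnajb9 had 20.6 ± 5.7 CPM in NDI1 and 27.4 ± 10.8 CPM in WT there, a difference of -0.41 ± 0.21 (adjusted p = 0.192, edgeR).

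The piericidin A effect itself was compared between genotypes. Without LPS no member was called, against 1.27% of genes, and 1 had an unadjusted p under 0.05 (edgeR), against 1331 of 11853 genes. The differences were -0.75 ± 0.35 for Herpud1 (adjusted p = 0.404) and -0.39 ± 0.25 for Hspa5 (adjusted p = 0.607, edgeR). Under LPS no member was called, against 0.979% of genes, and 1 had an unadjusted p under 0.05, Dnajc3 at 0.35 ± 0.15 (adjusted p = 0.29, edgeR). Such a p was found for 1656 of 11853 genes. With the mouse as a block Herpud1 (adjusted p = 0.0132) and Hspa5 (adjusted p = 0.034, edgeR) were called without LPS, against 8.96% of genes, and Dnajc3 (adjusted p = 0.0132, edgeR) was called under LPS, against 9.51%. The LPS effect did not differ past the threshold between genotypes for any member, against 0% of genes, in any fit that was run. No member had an unadjusted p under 0.05 (edgeR), against 63 of 11853 genes. A p that misses the threshold does not show that the genotypes were alike.

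Other genes of the pathway moved with piericidin A in WT as follows. Of the 87 other ER genes, 7 rose and 4 fell (8.05% and 4.6%, against 7.79% and 7.05% of all genes), with a median log2 fold change of 0.12 against 0 for all genes. Ern1 rose by 0.75 ± 0.155 (adjusted p = 0.000971, edgeR), from 84.9 ± 5.28 to 142 ± 23.8 CPM, and Eif2ak3 fell by 0.79 ± 0.17 (adjusted p = 0.00132, edgeR), from 30.7 ± 3.01 to 17.7 ± 4.76 CPM. Ero1a, the oxidase that reloads disulfide isomerases, rose by 0.80 ± 0.17 (adjusted p = 0.00142, edgeR), and Mcfd2, a cargo receptor subunit of ER export, by 0.57 ± 0.12 (adjusted p = 0.00108, edgeR). Txndc5, a disulfide isomerase, fell by 0.40 ± 0.105 (adjusted p = 0.0084, edgeR), and Mbtps1, the site-1 protease that cuts ATF6, by 0.325 ± 0.089 (adjusted p = 0.0116, edgeR). By library totals the split was 3 higher and 5 lower, where 18.7% of all genes were called, and without mouse 496 and mouse 503 it was 5 and 1, where 7.72% were. With the block it was 21 higher and 5 lower of 87, where 34.2% of all genes were called. In the arm from PERK to ATF4, 10 of 13 rose and 0 fell (76.9% and 0%), with a median of 1.32, and without mouse 496 and mouse 503 it was 9 and 0. This list was chosen with earlier results of these data known, and the part of PERK in the rises was not tested. Trib3 rose by 1.595 ± 0.42 (adjusted p = 0.00886, edgeR), Atf3 by 1.50 ± 0.27 (adjusted p = 0.000168, edgeR) and Ppp1r15a, the phosphatase subunit that reverses eIF2α phosphorylation, by 1.385 ± 0.21 (adjusted p = 1.4e-05, edgeR). The median of the 10 members in the same comparison was 0.22.

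Under LPS, piericidin A in WT raised 1 and lowered 6 of the 87 other ER genes (1.15% and 6.9%, against 7.81% and 8.92% of all genes), with a median of -0.05 against -0.02 for all genes. Ern1 rose by 0.71 ± 0.16 (adjusted p = 0.00197, edgeR), from 36.8 ± 4.62 to 60.3 ± 15.2 CPM. Creb3l1 fell by 1.195 ± 0.32 (adjusted p = 0.00838, edgeR), from 11.3 ± 5.53 to 4.92 ± 1.93 CPM, beside 3.6 ± 0.777 CPM untreated, and in NDI1 it stood at 12 ± 4.87 and 10.9 ± 4.68 CPM. Vcp, the ATPase that pulls proteins out of the ER membrane, fell by 0.295 ± 0.075 (adjusted p = 0.00587, edgeR), and Srpra, a subunit of the signal recognition particle receptor, by 0.29 ± 0.08 (adjusted p = 0.00942, edgeR). With the block the split was 4 higher and 18 lower of 87, where 34.5% of all genes were called. Without mouse 496 and mouse 503 it was 1 and 0, where 8.12% of all genes were called. In the PERK to ATF4 arm 3 rose and 0 fell, 6 and 0 with the block, and without mouse 520 the number called was 1. The 3 were Ddit4 at 2.43 ± 0.46 (adjusted p = 0.00042, edgeR), Ppp1r15a at 0.76 ± 0.21 (adjusted p = 0.00952, edgeR) and Sesn2 at 0.71 ± 0.22 (adjusted p = 0.0207, edgeR). Without mouse 496 and mouse 503 the arm had 2 higher and 0 lower, and Sesn2 was not called (0.77, adjusted p = 0.0684, edgeR).

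In NDI1 BMDMs piericidin A called none of the 87 other ER genes and none of the 13 genes of the PERK to ATF4 arm, with or without LPS, and none had an unadjusted p under 0.05 (edgeR). Of all 11853 genes, 58 without LPS and 127 with LPS had one. The difference of the piericidin A effect between genotypes passed for 2 genes of that arm without LPS, Atf3 at -1.44 ± 0.375 and Ppp1r15a at -1.18 ± 0.29, and for 1 under LPS, Ddit4 at -2.92 ± 0.68. Without mouse 496 and mouse 503 none of the 3 passed, with differences of -1.31 for Atf3 (adjusted p = 0.294), -1.07 for Ppp1r15a (adjusted p = 0.16) and -3.05 for Ddit4 (adjusted p = 0.0573, edgeR). With the mouse as a block 10 of the 13 genes passed without LPS and 3 under LPS, all lower in NDI1, and 6 and 4 of the other ER genes passed, against 8.96% and 9.51% of all genes. Without the block it passed for none of the other ER genes (edgeR), of which 11 had an unadjusted p under 0.05 without LPS and 6 with LPS, and DESeq2 called 2 in each setting. Compared directly, 7 of the 13 genes of the arm were lower in NDI1 than in WT with piericidin A and 3 with LPS and piericidin A, with none higher, against 4.31% and 6.13% of all genes lower. Without mouse 496 and mouse 503 these were 7 and 2. Of the other ER genes, 2 were higher and 4 lower with piericidin A, and 4 were higher and 1 lower with both agents (3.48% and 5.86% of all genes were higher), which without mouse 496 and mouse 503 became 0 and 2, and 0 and 0. The plot of the other genes shows the WT effects by class.

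**Figure D4:**
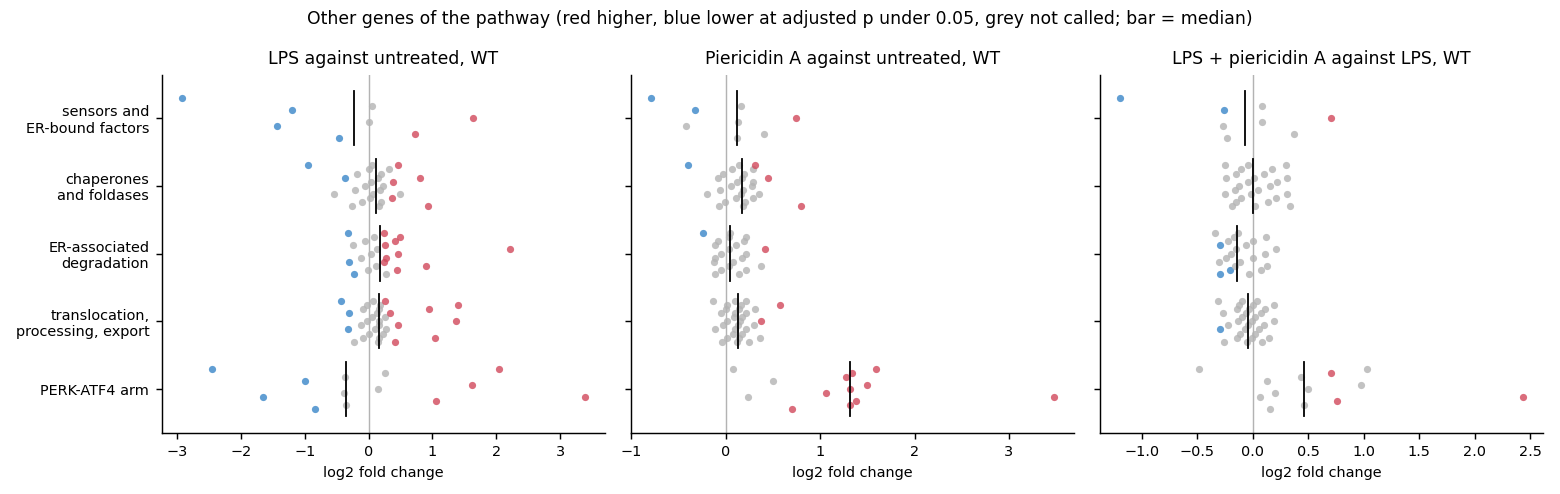
Log2 fold changes in WT of the 87 other ER genes by class and of the 13 genes of the PERK to ATF4 arm, for the same 3 treatment comparisons, with the median of each class as a bar and points in red where called higher and in blue where called lower. With piericidin A alone 10 of 13 points of the PERK to ATF4 arm are called higher, with a median of 1.32, while the medians of the ER classes lie between 0.04 and 0.17. The point furthest right there is Chac1, at 3.47, a gene averaging 0.56 log2 CPM with 1 count in its lowest library, which is below the level set for naming genes.

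The mice differed in several of these genes at every treatment. In each of the 8 groups, the library of mouse 496 or mouse 503 had the highest Hsp90b1 and the highest Pdia4 of the 5 libraries, and in 7 of 8 groups the highest Sdf2l1 and the highest Dnajc3. Being highest in 8 of 8 groups held for 464 of the 11853 genes, or 3.91%. Hsp90b1 had 502, 517, 598 and 544 CPM in mouse 496 untreated, with LPS, with piericidin A and with both, while the other 4 WT mice lay between 316 and 387 CPM. In mouse 503 it had 494, 478, 480 and 487 CPM in the same order, against 248 to 397 CPM in the other 4 NDI1 mice. Untreated Sdf2l1 was 47.5 CPM in mouse 496 and 46.5 CPM in mouse 503, against 15.2 to 30.4 CPM in the other 8 mice. Herpud1 was highest in these mice in 5 of 8 groups, Hspa5 in 4, Edem1 in 2, Atf6 in 1, and Xbp1 and Dnajb9 in 0. These are the mice with the higher neutrophil, B cell and plasma cell marker levels given above, and the part of these markers in the levels of the 4 genes was not tested.

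**Figure D5:**
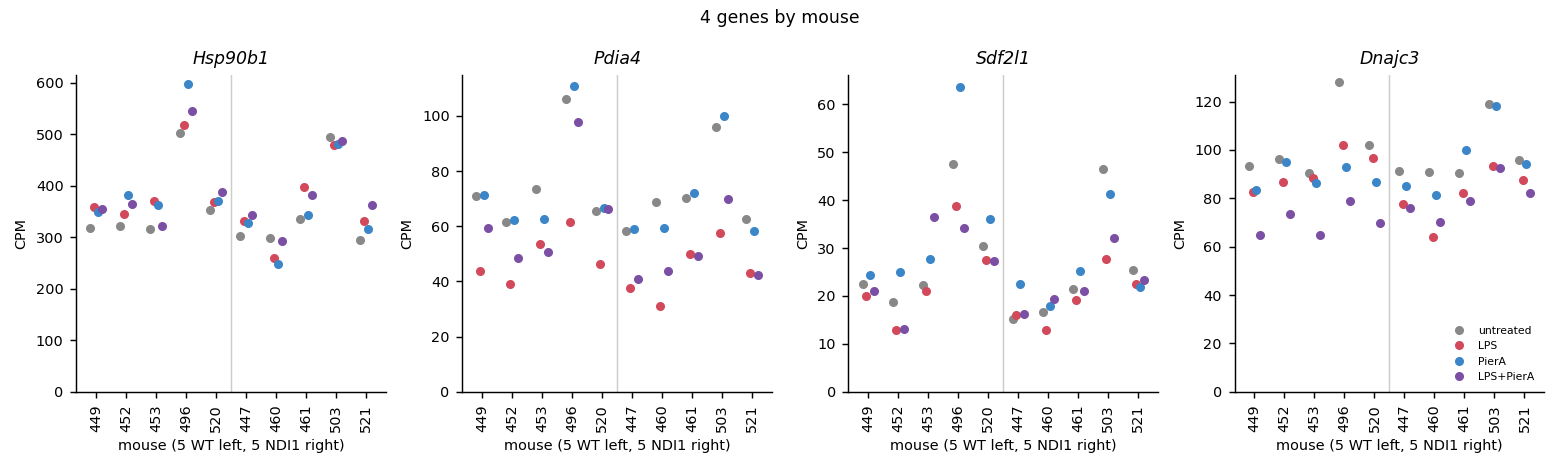
CPM of Hsp90b1, Pdia4, Sdf2l1 and Dnajc3 in the 4 libraries of each mouse (colours mark the treatment), 5 WT mice left and 5 NDI1 mice right of the line. For Hsp90b1 all 4 libraries of mouse 496 (502 to 598 CPM) and mouse 503 (478 to 494 CPM) lie above those of the other mice.

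The genes whose levels over the 40 libraries were most like those of Hspa5 were Nampt, 9530068E07Rik, Rap1b, Cycs and Csrp1, with Pearson's r of 0.986, 0.979, 0.979, 0.978 and 0.978 in log2 CPM. LPS split the libraries into separate sets, and within the 20 libraries with LPS r was 0.734 to 0.965 and within the 20 without LPS 0.807 to 0.922. For Atf6, which LPS did not split, they were Zfp236, AW549877, Ncoa1, Nfat5 and Pcm1, with r from 0.809 down to 0.756, with 0.771 to 0.874 within the libraries with LPS and 0.695 to 0.816 within those without. These are descriptions over libraries that share mice and treatments.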

How the data were processed

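RNA-seq libraries of BMDMs were made from polyA-selected mRNA. The authors trimmed the reads (Trimmomatic), aligned them to mm10 with STAR, counted reads in exons with HTSeq and deposited raw counts per gene. The annotation release and strand setting are not given in the sources used here. Hsp90b1, Pdia4, Herpud1 and Atf6 overlap other genes, which held at most 68 counts in a library. Of the 43430 genes, 42462 matched a symbol. The count table held 1 further column of values that was not used.

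Groups and mice came from the labels. The tests used edgeR 4.0.16 under R 4.3.3 (filterByExpr over 8 groups, TMM, glmQLFit with a mean per group over 40 libraries, glmQLFTest), and adjusted by Benjamini-Hochberg over 11853 genes. The SE is the log2 fold change over the square root of F. CPM on the log2 scale used a prior count of 2. Exon lengths are from GENCODE M21. A level of 3 counts, the floor, is 0.335 CPM of the library total, before TMM scaling, in a library of 8955095 counts, and this covers counting error only. P-values of the main fit measure the spread between libraries of a group, which come from different mice, and treat libraries of the same mouse as independent. P-values with the mouse as a block measure the spread left within mice.

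Mouse numbers pair the libraries, since they name the animal. Deviations from group means correlated by 0.453 on average between libraries of the same mouse (0.0995 to 0.769, 60 pairs) and by -0.107 between mice (240 pairs). The study's methods name no block, so the main fit has none. It thus leaves this pairing out, and differences between mice stay in its spread. For treatment effects and their differences, the fit with the mouse as a block takes the pairing into account. No 2 libraries of a group were alike within sampling noise (80 pairs).

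Alternatives were DESeq2 1.42.0, RLE factors, other count filters, only the compared libraries, the mouse block, each mouse left out, a prior count of 0.5 and, chosen after seeing the data, library totals without factors and leaving out mouse 496 and mouse 503. Named genes are all members in every comparison and, of the other lists, the 3 largest rises and falls called in 5 comparisons among genes averaging at least 1 log2 CPM. Chac1 and the levels by mouse were chosen after their values were seen. Members and lists were chosen with earlier results of these data known. The fits were tested on simulated data. The NDI1 transgene is not analysed here.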

Additional observations from a re-analysis of the deposited data

Results flagged for a closer look

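In 7 of 80 groups of 5 libraries (10 genes in 8 groups), 1 library lay further from the others than Dixon's test allows, where chance flags about 5% of groups. Of these, 6 belonged to mouse 496 or mouse 503. Hsp90b1 was high in mouse 496 untreated (502 CPM, next 352), with LPS (517 CPM, next 370) and with piericidin A (598 CPM, next 381), and in mouse 503 untreated (494 CPM, next 335). Dnajc3 was high in mouse 503 untreated (119 CPM, next 95.8), and Pdia4 in mouse 496 with piericidin A (111 CPM, next 71.2). Atf6 was low in WT mouse 453 with LPS and piericidin A (91.8 CPM, next 121).

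Differences between effects were flagged where a test of the difference passed, with or without the mouse block, or where the 5 mice moved one way in one setting and the opposite way in the other. For the LPS effect with minus without piericidin A in WT, the log2 differences were -1.42 for Herpud1, -0.56 for Hspa5, 0.41 for Pdia4 and -0.34 for Xbp1. Herpud1 passed without the block (adjusted p = 0.0162, edgeR), and the other 3 only with it. For the piericidin A effect, NDI1 minus WT, the differences were -0.75 for Herpud1 and -0.39 for Hspa5 without LPS and 0.35 for Dnajc3 under LPS, and these passed only with the block.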

How the results depend on the processing

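Of the counts of called genes recomputed under alternatives, 386 stayed within 1.5 times the main count and 60 did not. A count of 0 in both fits was scored as staying, also where no gene at all was called, so the 386 do not measure how stable the other counts are. Same-numbered libraries come from the same animal, and the fit with the replicate block called more. For piericidin A in WT it called 6 members and 26 other ER genes (34.2% of all genes). Under LPS it called 3 members, 22 other ER genes and 6 genes of the PERK to ATF4 arm (34.5%). For the piericidin A effect between genotypes it called 2 members, 6 other ER genes and 10 genes of the arm without LPS (8.96%), and 1, 4 and 3 under LPS (9.51%). For the LPS effect with against without piericidin A in WT it called 4 members (17.4%). Library totals without factors called 9 members and 78 other ER genes for LPS in WT (81% of all genes), 2 members for piericidin A in WT (18.7%), 2 other ER genes under LPS, and 1 gene of the arm for the effect between genotypes. By those totals Edem1 turned to -0.244 in WT and -0.235 in NDI1 with LPS. Those totals set no factor for composition, and the median gene then moved with LPS as given above.

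Fits on only the compared libraries called 7 other ER genes for piericidin A in WT, 0 members and 1 other ER gene under LPS, 0 members for the LPS effect with against without piericidin A, 1 other ER gene and 0 genes of the arm for the effect between genotypes, and 0 genes of the arm for that under LPS. Leaving out mouse 496 and mouse 503 gave 0 members and 6 other ER genes for piericidin A in WT, 1 other ER gene under LPS, 0 members for the LPS effect with against without piericidin A, and 0 genes of the arm in both comparisons of genotypes. DESeq2 called 2 other ER genes in each of these comparisons of genotypes, no filter on low counts gave 4 other ER genes for piericidin A under LPS, and at least 10 counts in every library gave 0 genes of the arm for the genotype comparison under LPS. The cause of these shifts was not tested.

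Leaving out each mouse in turn gave 0 to 1 members and 5 to 11 other ER genes for piericidin A in WT, and 0 to 1 members, 1 to 8 other ER genes and 1 to 3 genes of the arm under LPS. It gave 0 to 1 members for the LPS effect with against without piericidin A, 0 to 2 genes of the arm for the effect between genotypes, and 0 to 1 other ER genes and 0 to 1 genes of the arm for that under LPS. For member values called without the block and with TMM, 15 recomputed values lost the call and 2 turned. Members not called so are not in this tally, and some gained a call with the block or by library totals. Precision was lowest for Sdf2l1 and Herpud1, with SE of 0.322 and 0.254 for LPS in WT.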
